A study of Bos taurus with 2 samples.

Results

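Floor-plate-like cells of the day 25 bovine embryo were chosen by the transcripts SHH, NTN1, CORIN and ADAMTS16. A cell was a member where these 4 genes summed to at least 3 UMI (unique molecular identifiers, a count of captured transcripts), at least 2 of the 4 were detected, and COL1A1, COL1A2 and COL3A1 summed to fewer than 10 UMI. Of 4159 kept cells, those with at least 1000 UMI and 500 genes, 332 met the rule. They made up 117 of 1843 kept cells in replicate 1, or 6.35% (exact 95% interval 5.28 to 7.56), and 215 of 2316 in replicate 2, or 9.28% (8.13 to 10.5).

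The cells came from bovine (Bos taurus) embryos flushed at day 25 that were chimeras carrying bovine embryonic stem cells (bESC), and this holds for every cell described here. Embryos were cut up, digested with papain and sorted, and the suspension was profiled by 10x Genomics 3′ single-cell RNA sequencing in 2 libraries, called replicates 1 and 2. The labels give no second group, no number of embryos per library and no sort gate, and whether the libraries hold separate embryos is not stated. The p-values therefore apply only to differences between sets of cells within these 2 libraries, and all intervals cover counting error only.

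The floor plate is the strip of glia-like cells along the ventral midline of the neural tube. In vertebrates it secretes SHH, the sonic hedgehog ligand that patterns ventral progenitors by dose, and netrin-1, the product of NTN1, which guides commissural axons. CORIN, a serine protease, is a marker of floor plate in mouse and human, ADAMTS16 is a secreted metalloprotease, and the transcription factor FOXA2 is induced by SHH and activates SHH transcription in mouse floor plate.

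The 4 genes were combined in many ways within the members. SHH was detected in 72.6% of members in replicate 1 and 76.7% in replicate 2, NTN1 in 79.5% and 83.3%, ADAMTS16 in 62.4% and 67.4%, and CORIN in 36.8% and 35.8%. Each of these shares was above that in all other kept cells, which had SHH in 6.03% and 7.95%, NTN1 in 14.7% and 14.2%, ADAMTS16 in 5.33% and 4.43% and CORIN in 2.9% and 2.62%. These genes chose the cells, so the shares are a description. The summed count had a median of 5 UMI in replicate 1 and 6 in replicate 2, with a range of 3 to 21 and 3 to 23. The commonest combination over both libraries was SHH with NTN1 and ADAMTS16, in 22 and 48 cells. It was followed by SHH with NTN1, in 27 and 37 cells, which was the commoner of these in replicate 1. All 4 genes were found together in 8 and 32 cells. CORIN was thus missing from most members, and SHH with NTN1 or NTN1 with ADAMTS16 carried most of the choice.

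**Figure D1:**
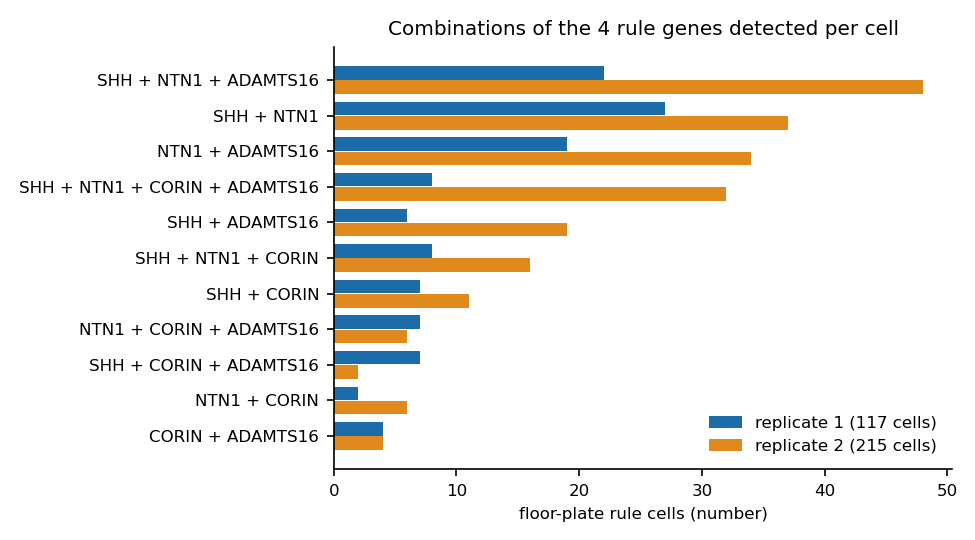
Number of floor-plate rule cells (horizontal axis) with each combination of the 4 rule genes detected, in replicate 1 (blue, 117 cells) and replicate 2 (orange, 215 cells). SHH with NTN1 and ADAMTS16 is the commonest combination over both libraries, with 70 cells, and CORIN with ADAMTS16 is one of the rarest, with 8.

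The threshold cut through a continuum. Just inside it, 27 and 33 members had a sum of exactly 3 UMI, and FOXA2 was detected in 59.3% and 72.7% of them. Just outside it lay 36 and 45 cells with 1 UMI of each of 2 genes, of which 72.2% and 82.2% had FOXA2, and 56 and 65 cells with at least 3 UMI of 1 gene alone, of which 53.6% and 61.5% had FOXA2. A further 9 and 12 cells met the 4-gene rule but had at least 10 collagen UMI, and 88.9% and 91.7% of them had FOXA2. FOXA2 was thus no rarer just outside the rule than just inside it where 2 genes were detected. Among cells with none of the 4 genes, FOXA2 was detected in 27.9% and 26.6%.

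Each rule gene was also read in cells chosen by the other 3, with at least 3 UMI over them and at least 2 detected. SHH was then found in 54.9% and 63.0% of the 71 and 135 cells so chosen, against 8.47% and 11.3% of the rest. It was found in 16.1% and 16.3% of collagen-rich cells (at least 10 collagen UMI), a set in which 9 and 12 cells met the 4-gene rule. NTN1 was found in 60.0% and 71.7%, against 17.4% and 17.6% of the rest and 19.6% and 12.8% of collagen-rich cells. ADAMTS16 was found in 44.3% and 54.5%, against 7.37% and 7.12% of the rest, and CORIN in 27.5% and 28.1%, against 3.73% and 3.67%. Each gene was thus detected more often in cells chosen without it than in the rest, in both libraries. The rule was set with earlier results of these data known, so this describes the cells and is no independent evidence for the label. The chosen cells were deeper than the rest (a median of 7509 and 8112 UMI, against 5193 and 5808, for SHH). After every cell was thinned to 2000 UMI, SHH was found in 23.1% and 31.2% of only 13 and 32 chosen cells, against 5.06% and 7.15% of the rest.

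Members were deeper and richer in ribosomal protein transcripts than other cells. Their median was 8838 and 8443 UMI, against 5058 and 5685 in all other kept cells, 5732 and 6699 in the other SOX2-positive cells, and 6448 and 8762 in cells chosen by a like rule for the roof plate. Transcripts of 82 ribosomal protein genes took 20.4% and 19.3% of members' UMI, against 11.8% and 15.3% in all other kept cells. Collagen-rich cells had a higher share, with 24.5% and 23.6%, and roof-plate rule cells had 15.1% and 18.7%. Mitochondrial transcripts took 0.283% and 0.248% of members' UMI, against 0.68% and 0.607% in all other kept cells. The ribosomal and mitochondrial shares moved with membership in every comparison below, and depth did in all but replicate 2 against roof-plate rule cells; their part in the results was not tested. Doublets were not removed, the 2 libraries shared 6 barcodes, and 0 members were among them.

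FOXA2, a floor plate gene that the rule did not use, stood out in the members. FOXA2 was detected in 82.9% (exact 95% interval 74.8 to 89.2) and 82.8% (77.1 to 87.6) of members, against 37.6% and 40.7% of other SOX2-positive cells, 20.7% and 31.9% of roof-plate rule cells, and 26.8% and 26.2% of collagen-rich cells, whose median depth was 10450.5 and 8351 UMI. At 2000 UMI per cell, FOXA2 was found in 46.9% and 52.9% of members and 14.3% and 13.0% of collagen-rich cells. FOXA2 and SOX2, a transcription factor of neural progenitors, were found together in 70.9% and 71.6% of members. The label of floor-plate-like cells therefore held for most but not all members by FOXA2.

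**Figure D2:**
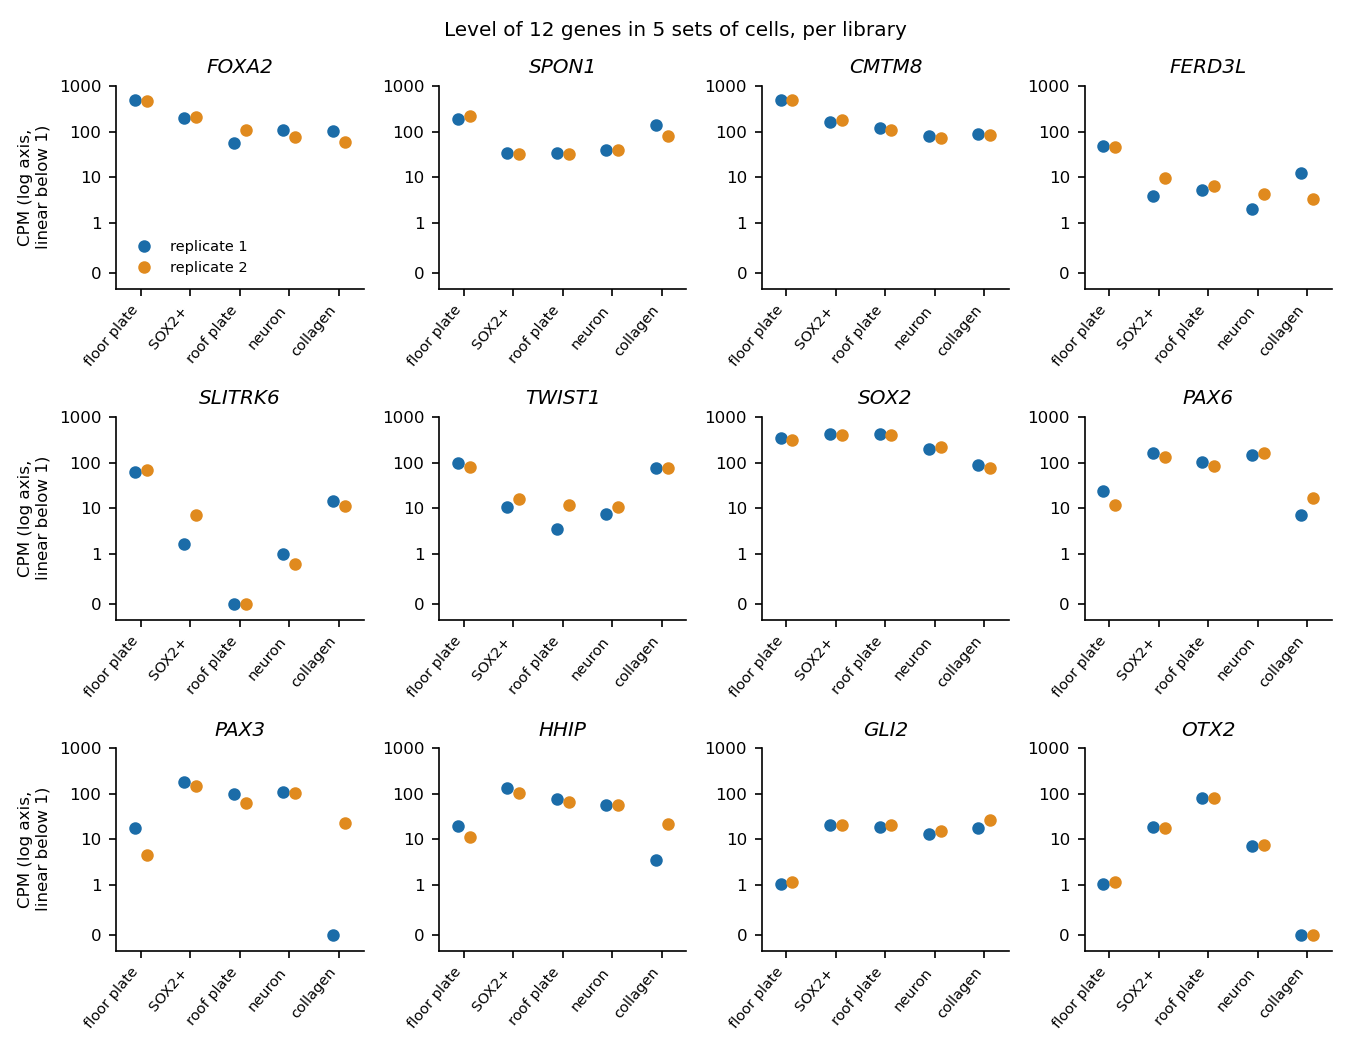
Level of 12 genes in CPM (counts per set divided by its UMI total; log axis, linear below 1) in floor-plate rule cells, other SOX2-positive cells, roof-plate rule cells, neuron rule cells and collagen-rich cells, 1 point per library. FOXA2, SPON1, CMTM8, FERD3L and SLITRK6 are highest in the floor-plate rule cells in both libraries, TWIST1 is nearly as high in collagen-rich cells, and GLI2 and OTX2 lie near 1 CPM in the floor-plate rule cells.

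Markers of neighbouring tissues that also express SHH or FOXA2 were read as well. TBXT, the T-box factor that defines notochord, had 0 UMI in members, which allows up to 2.56% and 1.4% of them with a UMI, and 0 UMI in every other set too. The notochord list of 10 genes summed to 298 and 246 CPM in members, against 810 and 1100 in all other kept cells, with TBXT, NOTO and CAV2 at 0 in both libraries of members. Of its 5 genes tested, COL2A1 rose and KRT8, KRT18, KRT19 and FN1 fell against all other kept cells. The gut and yolk sac endoderm list of 13 genes summed to 466 and 438 CPM in members, against 1133 and 1946 in all other kept cells, and CDH1, HNF4A and GATA4 were at 0 in both libraries of members. APOA1, which encodes an apolipoprotein, made up most of that sum, with 379 and 366 CPM in members. It was lower than in all other kept cells (646 and 1185 CPM) and higher than in other SOX2-positive cells (77.4 and 127 CPM). The whole endoderm list was likewise higher in members than in other SOX2-positive cells, which had 153.5 and 232.9 CPM. Roof-plate rule cells had 218.1 and 527.6 CPM. Collagen-rich cells, which are part of all other kept cells, had 17800 and 17820 CPM. In other SOX2-positive cells HNF4A had only 1 and 2 UMI and GATA4 2 and 1 UMI, so their 0 does not set members apart.

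Set against all other kept cells, members were higher in most floor plate genes and lower in most dorsal and neuronal genes. They were lower in part of the hedgehog secretion and reception genes. UMI were summed per set and library and tested with edgeR's quasi-likelihood test with library as a term. Of 13351 genes tested, 1767 were called higher in members, or 13.2%, and 1954 lower, or 14.6%, at an adjusted p under 0.05. Both directions together made 27.9%. DESeq2 on the same sums called 526 higher, or 3.94%, and 487 lower, or 3.65%, together 7.59%, so both tools' counts are given for each list. The edgeR test took its spread almost wholly from a value shared over genes, here and against roof-plate rule cells, with 1 residual degree of freedom per gene. Against other SOX2-positive cells the shared value weighed as only 11.3 degrees of freedom. The edgeR p-values of that comparison are therefore not on the same scale as the others. Levels below are CPM scaled by TMM, replicate 1 before replicate 2.

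Of 17 floor plate genes outside the rule, 15 could be tested, 10 rose and 4 fell, and the median log2 fold change was 1.32, against -0.031 over all genes tested; DESeq2 called 8 higher and 2 lower. The list was drawn up with earlier results of these data known, so its direction is no independent evidence. FOXA2 had 531 and 501 CPM in members and 145 and 158 CPM in all other kept cells (edgeR adjusted p = 2.7e-22, DESeq2 3.3e-16, for a log2 fold change of 1.77, SE 0.17). SPON1, which encodes the matrix protein F-spondin, had 201 and 233 CPM in members and 32.9 and 35.3 CPM in the others (2.67, SE 0.15, edgeR adjusted p = 3.7e-62). Both genes were higher in members in each library with no overlap. SPON1 was detected in 40.2% and 44.7% of members, against 46.4% and 33.3% of collagen-rich cells, so the shares of these sets overlapped.

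FERD3L, a basic helix-loop-helix factor of mouse floor plate, had 51.3 and 49.1 CPM in members and 3.63 and 6.60 CPM in all other kept cells (log2 fold change 3.27, SE 0.27, edgeR adjusted p = 3.7e-32). FERD3L was detected in only 23.1% and 25.1% of members, so it did not mark every member at this depth. In collagen-rich cells it was found in 10.7% and 2.84%. FOXA1, a relative of FOXA2, rose by edgeR (adjusted p = 0.0029) at only 4.37 and 6.06 CPM in members, against 0.975 and 1.07 CPM in the others, and DESeq2 gave an adjusted p of 0.27. LMX1B, a LIM homeobox factor of midbrain floor plate in mouse, fell to 3.28 and 2.42 CPM in members, against 11.3 and 12.1 CPM in the others, by edgeR (adjusted p = 0.00043) and not by DESeq2 (0.17).

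Among secreted and surface proteins of the list, SLIT1, SLIT2, ALCAM, CMTM8 and SULF2 rose and SLIT3, SULF1 and HHIP fell. SLIT2, a repellent of axons that have crossed the midline, had 962 and 1101 CPM in members and 409 and 437 CPM in all other kept cells (log2 fold change 1.28, SE 0.23, edgeR adjusted p = 6.6e-07). SLIT1 had 135 and 187 CPM in members and 67.2 and 63.2 CPM in the others, while SLIT3 fell to 54.6 and 49.1 CPM in members, against 141 and 142 CPM in the others (edgeR adjusted p = 4.1e-15, DESeq2 1.6e-05). The 3 SLIT genes thus did not move together. ALCAM, a cell adhesion molecule, had 413 and 528 CPM in members and 158 and 159 CPM in the others. The calls of SULF2 and SULF1, which encode heparan sulfate sulfatases, were made by edgeR only, with DESeq2 adjusted p-values of 0.58 and 0.55.

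Genes that receive the hedgehog signal were not higher in the cells that carried the ligand's transcript. Of 16 hedgehog secretion and reception genes tested, 0 rose and 8 fell by edgeR, with a median log2 fold change of -0.62, and DESeq2 called 0 higher and 3 lower. PTCH1, the SHH receptor and a standard target of the pathway, had 121 and 126 CPM in members and 154 and 142 CPM in all other kept cells (-0.25, SE 0.16, edgeR adjusted p = 0.23). SMO, the signal transducer, had 62.2 and 66.6 CPM in members and 64.2 and 67.9 CPM in the others, and GLI1, another target, had 2.18 and 0.606 CPM in members and 2.31 and 3.08 CPM in the others and was not called. HHIP, a decoy receptor that pathway activity induces, fell to 20.7 and 12.1 CPM in members, against 95.4 and 86.0 CPM in the others (-2.54, SE 0.22, edgeR adjusted p = 1.4e-27, DESeq2 1.3e-08).

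GLI2, the main transcriptional activator of the pathway in mouse, showed the largest drop of this list. It had 1.09 and 1.21 CPM in members, or 1 and 2 UMI, and 17.7 and 18.6 CPM in all other kept cells (log2 fold change -3.95, SE 0.56, edgeR adjusted p = 9.1e-11, DESeq2 0.0042). It was detected in 0.855% and 0.93% of members, against 9.09% and 11.4% of other SOX2-positive cells and 16.1% and 18.4% of collagen-rich cells. GLI3, the main repressor, fell to 184 and 146 CPM in members, against 295 and 287 CPM in the others (edgeR adjusted p = 1.1e-05). The coreceptors GAS1, CDON and BOC, the inhibitor SUFU and the SHH-releasing factor SCUBE2 also fell by edgeR, and none of these 5 passed DESeq2. HHAT and DISP1, which acylate and release the ligand in the cells that make it, were not called, with 39.3 and 37.5 CPM of HHAT in members against 40.1 and 40.7 CPM in the others.

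**Figure D3:**
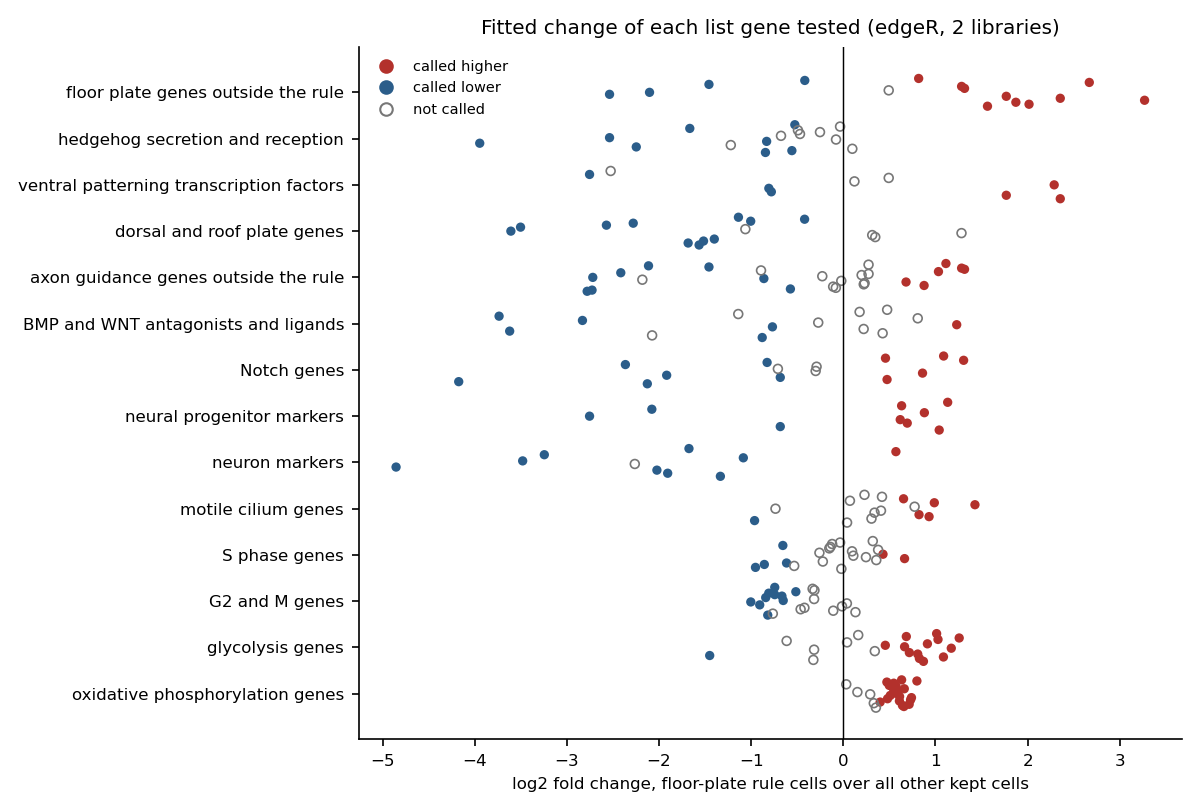
Fitted log2 fold change of floor-plate rule cells over all other kept cells (horizontal axis) for each tested gene of 14 lists, 1 point per gene, called higher (red), called lower (blue) or not called (open) at an edgeR adjusted p under 0.05. Genes with no UMI in the floor-plate rule cells, 3 in these lists, are not drawn; dorsal and hedgehog genes lie mostly left of 0 and glycolysis and oxidative phosphorylation genes mostly right of it.

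Dorsal genes were low in members. Of 16 dorsal and roof plate genes tested, 0 rose and 12 fell by edgeR, with a median log2 fold change of -1.46, and DESeq2 called 4 lower. PAX3, a dorsal progenitor factor, had 18.6 and 4.84 CPM in members and 126 and 119 CPM in all other kept cells (-3.61, SE 0.24, edgeR adjusted p = 1.1e-47, DESeq2 0.0018). It was detected in 7.69% and 1.86% of members, against 39.7% and 37.2% of other SOX2-positive cells. WNT3A, a dorsal midline WNT ligand, had 16.4 and 7.87 CPM in members and 51.5 and 56.1 CPM in the others (edgeR adjusted p = 4.1e-17, DESeq2 0.00012), and ZIC4 had 42.6 and 40.6 CPM against 87.8 and 93.8 CPM. RSPO3, an R-spondin, differed between the libraries of members, with 45.9 and 9.08 CPM, against 118 and 157 CPM in the others, and DESeq2 did not call it (adjusted p = 0.18). MSX1, often used as a dorsal marker, had 59.0 and 69.0 CPM in members and 51.2 and 50.3 CPM in the others and was not called.

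Transcription factors of the ventral progenitor domains that lie beside the floor plate were sparse. NKX2-2 had 9.83 and 10.9 CPM in members and 9.22 and 9.89 CPM in all other kept cells, NKX6-1 had 6.55 and 11.5 CPM in members and 5.94 and 7.24 CPM in the others, and neither was called. OLIG1, OLIG2 and SIM1 had 0 UMI in members and at most 0.532 CPM in the others. NKX2-1, a factor of ventral forebrain, was called higher by edgeR at 5.46 and 3.63 CPM in members, against 0.798 and 0.932 CPM in the others (adjusted p = 0.010), and not by DESeq2 (0.31). PAX6, which marks progenitors outside the ventral midline, fell to 25.1 and 12.7 CPM in members, against 125 and 113 CPM in the others (log2 fold change -2.75, SE 0.22, edgeR adjusted p = 5.5e-35, DESeq2 1.9e-11). It was found in 10.3% and 6.98% of members, against 48.5% and 43.6% of other SOX2-positive cells and 5.36% and 12.1% of collagen-rich cells.

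Of 26 axon guidance genes tested outside the rule, 6 rose and 9 fell by edgeR (DESeq2 3 and 6), with a median log2 fold change of -0.096. DCC, the attractive netrin receptor, had 17.5 and 20.6 CPM in members and 138 and 130 CPM in all other kept cells (-2.78, SE 0.21, edgeR adjusted p = 1.6e-37, DESeq2 1.5e-13). The SLIT receptor ROBO2 had 59.0 and 52.7 CPM in members and 370.0 and 361 CPM in the others (-2.72, SE 0.19, edgeR adjusted p = 1.3e-42), and ROBO1 fell too. UNC5D, a receptor of the netrin receptor family, rose to 382 and 427 CPM in members, against 210 and 168 CPM in the others (1.11, SE 0.17, edgeR adjusted p = 1.1e-09, DESeq2 1.3e-05), whereas UNC5B fell to 3.28 and 11.5 CPM, against 36.5 and 35.7 CPM. The receptors NEO1 and UNC5C were not called. SEMA3E was called higher by edgeR on uneven libraries, with 51.3 and 13.9 CPM in members and 14.7 and 13.1 CPM in the others, and DESeq2 gave an adjusted p of 0.32.

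Position along the body axis was read from OTX2 and the HOX genes. OTX2, a factor of forebrain and midbrain, was found in 1 and 2 members, or 0.855% and 0.93%, against 7.52% and 7.27% of other SOX2-positive cells and 30.5% and 29.2% of roof-plate rule cells. It fell to 1.09 and 1.21 CPM, against 11.9 and 11.3 CPM in all other kept cells (log2 fold change -3.28, SE 0.64, edgeR adjusted p = 5.4e-06, DESeq2 0.049). Any HOX gene was found in 29.9% and 32.6% of members, against 41.2% and 45.0% of other SOX2-positive cells and 51.6% and 54.0% of neuron rule cells (at least 3 UMI over ELAVL3, ELAVL4, STMN2 and ONECUT2). Most HOX transcripts of members came from HOXA2, with 21 and 29 UMI, and HOXB2, with 19 and 54 UMI, whose mouse relatives are expressed from the hindbrain back. HOXA3 had 4 and 7 UMI and HOXB3 4 and 4 UMI. Over all HOX genes of groups 5 to 13, members had 1 and 2 UMI in all. Of 11 position genes tested, 0 rose and 8 fell by edgeR and 2 by DESeq2, HOXA3 and OTX2.

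Members kept progenitor genes and were low in most neuronal genes. Of 9 neural progenitor markers tested 6 rose and 3 fell by edgeR (DESeq2 5 and 2). VIM, an intermediate filament of glia and progenitors, had 3229 and 3192 CPM in members and 1212 and 1767 CPM in all other kept cells (edgeR adjusted p = 0.014, log2 fold change 1.13, SE 0.38), and RFX4 had 486 and 558 CPM against 279 and 288 CPM. SOX1 fell to 14.2 and 7.27 CPM in members, against 41.0 and 42.6 CPM (edgeR adjusted p = 2.7e-12, DESeq2 0.0016). SOX1, PAX6 and HES5 were thus the falling members of a list that mostly rose. Of 10 neuron markers tested 8 fell by both tools, among them STMN2, with 72.1 and 49.7 CPM in members and 488 and 629 CPM in the others. SYT1, a synaptic vesicle protein, was the exception, with 649.6 and 735 CPM in members and 472 and 460 CPM in the others (0.57, SE 0.21, edgeR adjusted p = 0.029, DESeq2 0.031). With both sets limited to cells of at least 5000 UMI it was 0.46 and not called (edgeR adjusted p = 0.16), nor was it with a sum of at least 5 UMI in the rule (0.63, edgeR adjusted p = 0.055).

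Among Notch genes, NOTCH1 and NOTCH3 encode receptors and rose. NOTCH1 had 50.2 and 41.8 CPM in members and 16.8 and 19.7 CPM in all other kept cells (log2 fold change 1.31, SE 0.22, edgeR adjusted p = 7.9e-08, DESeq2 0.016), and NOTCH3 had 54.6 and 64.2 CPM against 29.3 and 27.2 CPM. DLL3, a ligand-like protein of newborn neurons, fell to 2.18 and 1.21 CPM in members, against 23.8 and 31.3 CPM in the others, and HES6 fell to 18.6 and 14.5 CPM, against 61.3 and 60.6 CPM. Over the 14 genes tested, 5 rose and 6 fell by edgeR, and 2 rose and 2 fell by DESeq2. Among 15 BMP and WNT antagonists and ligands tested 1 rose, NOG, which encodes the BMP antagonist noggin, with 34.9 and 37.5 CPM in members and 12.9 and 17.7 CPM in the others (edgeR adjusted p = 5.9e-06, DESeq2 0.051). Its log2 fold change was 1.23, and -1.51 with every cell thinned to 2000 UMI, where it was not called. Of 6 that fell, SFRP2, a WNT antagonist, was the only one DESeq2 called, with 15.3 and 6.06 CPM in members and 69.9 and 66.8 CPM in the others.

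Mitotic transcripts were somewhat lower, and the libraries of members differed. Of 20 G2 and M genes, 0 rose and 10 fell by edgeR, and DESeq2 called 0 in either direction. MKI67 had 56.8 and 33.9 CPM in members and 75.3 and 76.3 CPM in all other kept cells (log2 fold change -0.81, SE 0.18, edgeR adjusted p = 0.00012, DESeq2 0.16). CDK1, TOP2A or MKI67 was detected in 41.9% and 31.2% of members, against 54.1% and 51.2% of other SOX2-positive cells. Replicate 1 members lay above replicate 2 members in each of these measures. Of 20 S phase genes 2 rose and 4 fell by edgeR, and 0 passed DESeq2. Of 15 motile cilium genes tested 5 rose and 1 fell by edgeR, and DESeq2 called RFX2, a ciliary transcription factor with 138 and 131 CPM in members and 69.0 and 66.5 CPM in the others (edgeR adjusted p = 5.6e-09, DESeq2 0.0034). FOXJ1, the master factor of motile cilia in vertebrates, had 0 UMI in members. It had only 5 and 3 UMI in all other kept cells, so the 0 does not set members apart.

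Energy metabolism genes were higher in members on average, along with depth and ribosomal protein share. Of 20 glycolysis genes 13 rose and 1 fell by edgeR, and 11 rose and 1 fell by DESeq2, with a median log2 fold change of 0.70. LDHA had 586 and 633 CPM in members and 237 and 308 CPM in all other kept cells (1.17, SE 0.19, edgeR adjusted p = 2.1e-08), and PGK1 had 353 and 362 CPM against 135 and 164 CPM. ENO2, the neuronal enolase, was the 1 that fell. Of 26 oxidative phosphorylation genes 21 rose and 0 fell by edgeR, and 6 rose by DESeq2, with a median of 0.56. With both sets limited to cells of at least 5000 UMI, edgeR called 9 glycolysis genes and 6 oxidative phosphorylation genes higher. With every cell thinned to 2000 UMI it called 0 of either list. That fit had only 31 and 58 members and called 165 of 11426 genes higher, so 0 calls cannot show that the rise was absent.

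The genes with the largest rises in members mostly fell outside these lists. SLITRK6, a transmembrane protein of neurons and inner ear, had 67.7 and 72.1 CPM in members and 2.39 and 5.66 CPM in all other kept cells (log2 fold change 4.104, SE 0.25, edgeR adjusted p = 2.4e-58, DESeq2 2.5e-20). It was detected in 26.5% and 29.3% of members, against 7.14% and 4.96% of collagen-rich cells and 1.01% and 2.89% of other SOX2-positive cells. OPCML, a GPI-anchored cell adhesion molecule, had 579.7 and 595 CPM in members and 74.6 and 74.1 CPM in the others (2.98, SE 0.18, edgeR adjusted p = 2.0e-58, DESeq2 4.2e-48). The summed levels of both genes were higher in members in each library, but most members had no SLITRK6 UMI. TTC6, PDZRN4, EPHX1, CALML4, LRRC77, SIDT1 and B3GAT2 were the other rises beside FERD3L and SPON1, between 2.47 and 3.27 on the log2 scale. EPHX1 encodes the microsomal epoxide hydrolase and B3GAT2 a glucuronyltransferase of the HNK-1 epitope. With every cell thinned to 2000 UMI, FERD3L, EPHX1, TWIST1, LRRC77 and SIDT1 were not called.

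TWIST1, a transcription factor best known from mesenchyme, was also among the largest rises. It had 104 and 86.0 CPM in members and 11.3 and 18.6 CPM in all other kept cells (log2 fold change 2.64, SE 0.19, edgeR adjusted p = 7.7e-43, DESeq2 6.3e-12). It was detected in 32.5% and 29.8% of members, against 35.7% and 35.5% of collagen-rich cells and 4.49% and 7.1% of other SOX2-positive cells. The rest of the mesenchyme list did not follow against all other kept cells, a set that holds the collagen-rich cells. Of its 13 genes tested 2 rose, TWIST1 and FBN1, and 8 fell. The 13 genes summed to 239 and 226 CPM in members, against 443 and 730 CPM in all other kept cells and 5337 and 6159 CPM in collagen-rich cells. Other SOX2-positive cells lay below members, with 139 and 192 CPM. Against them 2 of 10 genes tested rose and 0 fell by edgeR (DESeq2 1 and 0). LUM, which encodes the matrix protein lumican, had 4.37 and 3.63 CPM in members and 47.0 and 108 CPM in the others. Collagen transcripts were capped by the rule, and 42.7% and 43.3% of members had 0 collagen UMI. Despite the cap, COL3A1 had 142 and 175 CPM in members and 29.7 and 39.5 CPM in other SOX2-positive cells. COL1A2 was also higher in members in both libraries, and COL1A1 in replicate 1 only. The collagens of the rule were not tested.

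The largest falls were in genes of other tissues and of neurons. PAG2, a pregnancy-associated glycoprotein of ruminant trophoblast, and SRGN, a proteoglycan of blood cells, fell to at most 2.18 CPM in members, against 136 and 44.4 CPM of PAG2 and 145 and 27.3 CPM of SRGN in all other kept cells. A2M, PAGE4, S100G and KLK1 fell likewise, between -6.31 and -5.39 on the log2 scale. CNTNAP5 and INA, both neuronal, had 6.55 and 2.42 CPM and 2.18 and 3.03 CPM in members, against 137 and 155 CPM and 71.1 and 83.7 CPM in the others. All 20 genes named for the largest changes passed DESeq2. PAG2, SRGN and KLK1 were uneven between the libraries of other cells and were no longer called without library as a term.

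Set against other SOX2-positive cells (at least 1 SOX2 UMI, fewer than 10 collagen UMI, 891 and 1141 cells), the same groups stood apart, with most non-neural cells out of the comparison. Of 12385 genes tested, 1214 rose, or 9.8%, and 1235 fell, or 9.97%, by edgeR, both together 19.8%. DESeq2 called 443 higher, or 3.58%, and 289 lower, or 2.33%, together 5.91%. The members are the same as before and the SOX2-positive cells are part of the other kept cells, so the comparisons are not independent. Of 15 floor plate genes tested outside the rule 10 rose and 4 fell (DESeq2 8 and 1), with a median log2 fold change of 1.39, against -0.0068 over all genes tested. SPON1 had 203 and 234 CPM in members and 29.6 and 30.7 CPM in other SOX2-positive cells (2.86, SE 0.14, edgeR adjusted p = 2.6e-07, DESeq2 1.1e-26). FOXA2 had 535 and 502 CPM in members and 173 and 199 CPM in other SOX2-positive cells (1.48, SE 0.14, edgeR adjusted p = 3.7e-05, DESeq2 4.7e-11). Other SOX2-positive cells thus carried FOXA2 transcript too, at a lower level in both libraries.

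CRABP1, PAX3 and PENK were among the largest falls there. CRABP1, a retinoic acid binding protein, had 137 and 79.0 CPM in members and 1247 and 2044 CPM in other SOX2-positive cells (log2 fold change -3.96, SE 0.34, edgeR adjusted p = 1.5e-05). PENK, the proenkephalin precursor, had 5.51 and 1.22 CPM in members and 76.6 and 40.1 CPM in other SOX2-positive cells (-4.26, SE 0.35, edgeR adjusted p = 1.1e-05, DESeq2 5.5e-08) and was not called after thinning. Of 16 dorsal genes tested 0 rose and 11 fell (DESeq2 0 and 5), and of 16 hedgehog genes 0 rose and 6 fell (DESeq2 0 and 3). GLI2 had 1.10 and 1.22 CPM in members and 18.1 and 19.9 CPM in other SOX2-positive cells, and HHIP 20.9 and 12.2 CPM against 116 and 100.2 CPM. PTCH1 was not called (-0.37, SE 0.13, edgeR adjusted p = 0.066), nor was NKX2-2. Of 8 neural progenitor markers tested 2 rose and 3 fell (DESeq2 3 and 3), and of 20 G2 and M genes 12 fell (DESeq2 2).

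The roof plate is the dorsal counterpart of the floor plate, a midline signalling strip that secretes BMP and WNT ligands. Roof-plate rule cells had at least 3 UMI over RSPO1, RSPO2, RSPO3 and LMX1A with at least 2 detected, and numbered 82 and 113. Of 9692 genes tested, 389 were higher in floor-plate rule cells, or 4.01%, and 516 lower, or 5.32%, by edgeR, together 9.34%. DESeq2 called 124 higher, or 1.28%, and 168 lower, or 1.73%, together 3.01%. The genes of both rules were left out. Among the 6 largest rises, SLITRK6 and TBX3, a T-box repressor, had 0 UMI in roof-plate rule cells of both libraries. SLITRK6 had 64.9 and 69.0 CPM in floor-plate rule cells, at least 34.6-fold higher, and TBX3 had 55.5 and 52.2 CPM, at least 27.8-fold higher, with the bound set at 3 UMI over both libraries. SCN3A, a sodium channel, had 106 and 115 CPM in floor-plate rule cells and 0 and 3.23 CPM in roof-plate rule cells. ADAMTS18, a metalloprotease, OPCML and TTC6 were the other 3, and of all 6 only OPCML was called after thinning, when 2260 genes were left to test.

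SLIT2 and NOG were not called between the midline sets. SLIT2 had 922 and 1055 CPM in floor-plate rule cells and 963 and 1269 CPM in roof-plate rule cells (log2 fold change -0.17, SE 0.25, edgeR adjusted p = 0.81). NOG had 33.5 and 36.0 CPM in floor-plate rule cells and 30.7 and 36.6 CPM in roof-plate rule cells (0.04, SE 0.31, edgeR adjusted p = 0.97). SLIT2 was lower in floor-plate rule cells in both libraries and NOG differed in sign between them, and a p-value above 0.05 does not show equal levels. SLIT3 was lower in floor-plate rule cells, with 52.4 and 47.0 CPM against 162 and 137 CPM. Of 14 floor plate genes tested outside the rule 7 rose and 4 fell (DESeq2 6 and 3), with a median log2 fold change of 0.67. FERD3L had 49.2 and 47.0 CPM in floor-plate rule cells and 4.85 and 6.45 CPM in roof-plate rule cells (3.02, SE 0.43, edgeR adjusted p = 1.5e-10, DESeq2 0.0041).

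**Figure D4:**
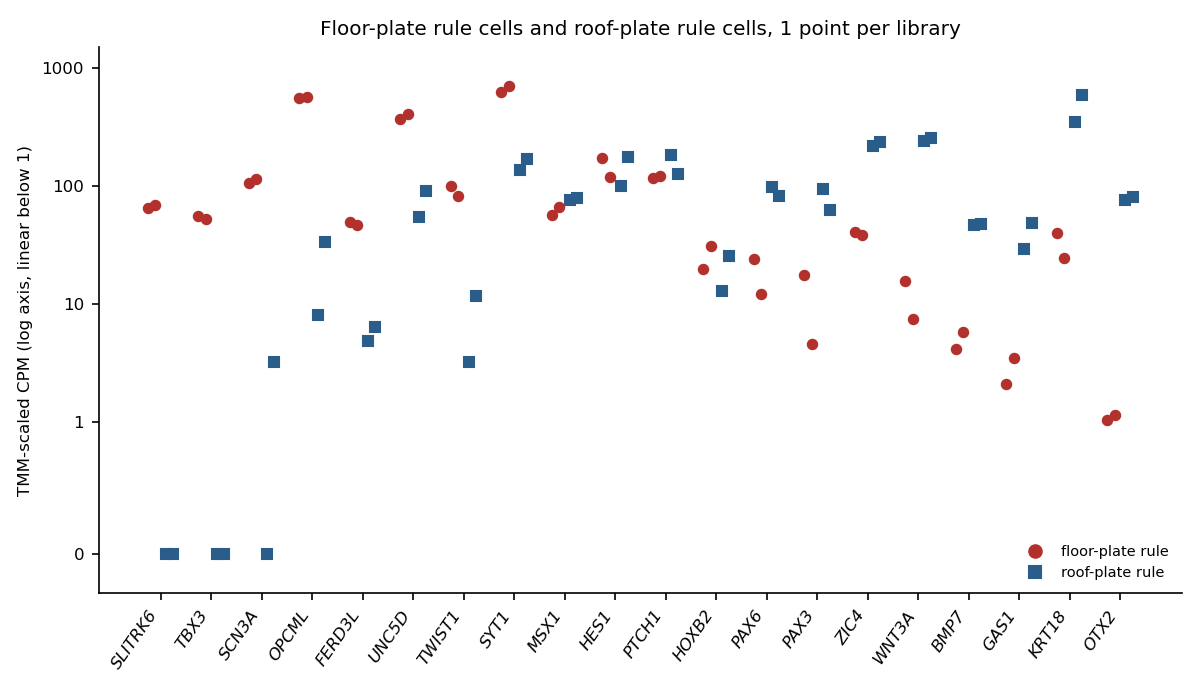
TMM-scaled CPM (log axis, linear below 1) of 20 genes in floor-plate rule cells (red circles, left) and roof-plate rule cells (blue squares, right), 1 point per library, with genes picked after their values were seen. SLITRK6 and TBX3 lie at 0 in roof-plate rule cells, MSX1, HES1, PTCH1 and HOXB2 lie close or overlap, and KRT18 and OTX2 are far lower in floor-plate rule cells.

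Dorsal genes were low in floor-plate rule cells, set against cells that dorsal genes had chosen. Of 8 dorsal genes tested outside the roof plate rule 0 rose and 7 fell (DESeq2 6), with a median log2 fold change of -2.60. WNT3A had 15.7 and 7.54 CPM in floor-plate rule cells and 239 and 253 CPM in roof-plate rule cells (-4.52, SE 0.26, edgeR adjusted p = 4.0e-64, DESeq2 9.2e-21). BMP7 had 4.19 and 5.80 CPM in floor-plate rule cells and 46.9 and 47.3 CPM in roof-plate rule cells (-3.16, SE 0.41, edgeR adjusted p = 9.1e-13). OTX2 was among the 4 largest falls, with 1.05 and 1.16 CPM in floor-plate rule cells and 76.0 and 80.7 CPM in roof-plate rule cells (-6.00, SE 0.48, edgeR adjusted p = 2.7e-32). The other 3 were TRPM3, a cation channel with 0 and 0.580 CPM in floor-plate rule cells and 304 and 241 CPM in roof-plate rule cells, SPARCL1, a matrix glycoprotein, and LIM2. LIM2, a lens membrane protein, had 0 UMI in floor-plate rule cells, at least 56.5-fold lower, and DESeq2 did not call it (adjusted p = 0.61).

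The hedgehog coreceptor genes CDON and GAS1 fell in floor-plate rule cells against roof-plate rule cells, and BOC was not called (edgeR adjusted p = 0.14). CDON had 67.0 and 67.3 CPM in floor-plate rule cells and 247 and 238 CPM in roof-plate rule cells (log2 fold change -1.85, SE 0.19, edgeR adjusted p = 1.4e-19, DESeq2 2.3e-06). GAS1 had 2.09 and 3.48 CPM in floor-plate rule cells and 29.1 and 48.4 CPM in roof-plate rule cells (edgeR adjusted p = 7.1e-14, DESeq2 0.0011). Over the list 0 of 12 genes rose and 6 fell (DESeq2 5). HES5, a Notch target, fell to 75.4 and 36.5 CPM in floor-plate rule cells, against 254 and 219 CPM in roof-plate rule cells, and HES1 was not called. The keratin genes KRT8 and KRT18 fell to 51.3 and 28.4 CPM and to 39.8 and 24.4 CPM, against 239 and 544 CPM and 349 and 587 CPM in roof-plate rule cells. SYT1 rose to 623 and 704 CPM in floor-plate rule cells, against 136 and 169.9 CPM in roof-plate rule cells (2.12, SE 0.20, edgeR adjusted p = 2.7e-24, DESeq2 2.6e-13). Of the glycolysis and oxidative phosphorylation genes, 1 of 18 and 1 of 26 were called higher and 0 lower by edgeR, and DESeq2 called 0.

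GFP, a green fluorescent protein reporter with a row in the count table that the labels do not describe, was high in members. It had 4543 and 3464 CPM in members, a mean of 4003 ± 763 (SD, n = 2), and 1238 and 1559 CPM in all other kept cells, a mean of 1399 ± 227. The log2 fold change was 1.51 (SE 0.41, edgeR adjusted p = 0.0015, DESeq2 2.3e-11), and it was 1.87 in replicate 1 alone and 1.15 in replicate 2 alone. Against other SOX2-positive cells, with 1613 and 2044 CPM, it was 1.14 (SE 0.35, edgeR adjusted p = 0.040), and 0.73 with an adjusted p of 0.14 after thinning. Against roof-plate rule cells, with 1445 and 2057 CPM, it was 1.14 (SE 0.34, edgeR adjusted p = 0.012), and DESeq2 did not call it (0.23). GFP was detected in 96.6% and 90.2% of members, against 86.0% and 87.3% of other SOX2-positive cells and 66.1% and 66.0% of collagen-rich cells. Replicate 1 members carried more GFP than replicate 2 members, whereas among all other kept, other SOX2-positive and roof-plate rule cells replicate 2 carried more. The labels give no sort gate, so its part in these levels cannot be told apart.

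**Figure D5:**
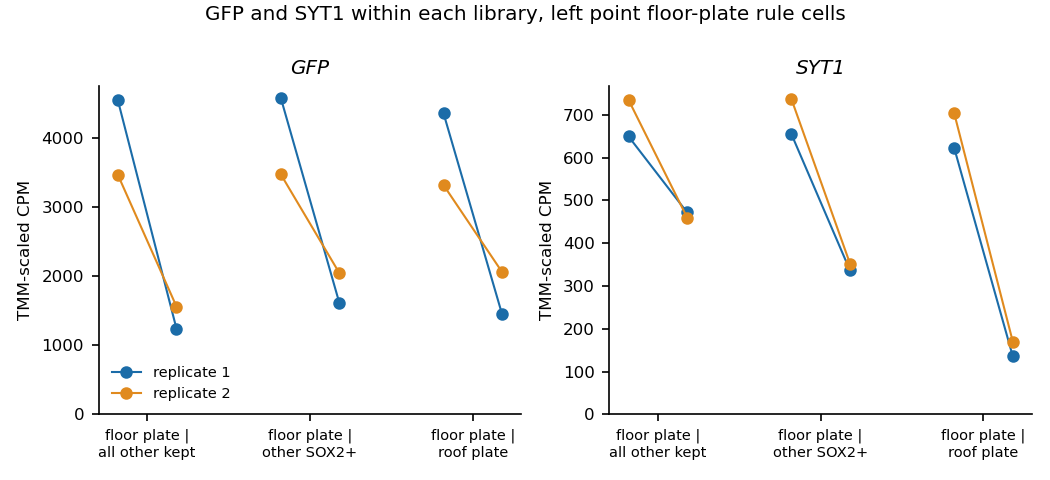
TMM-scaled CPM of GFP (left panel) and SYT1 (right panel) in floor-plate rule cells (left point of each pair) and in the set each is compared with (right point), with replicate 1 in blue and replicate 2 in orange. In every pair and library the floor-plate rule cells lie higher, and replicate 1 gives the steeper GFP difference.

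Within the members, cells with and without CORIN were set side by side, as CORIN was the least detected of the 4 rule genes. Members with CORIN numbered 43 and 77 and those without it 74 and 138, and those with it were deeper, with a median of 10402 and 9524 UMI against 8408.5 and 8094.5. FOXA2 had 555 and 486 CPM in members with CORIN and 455 and 456 CPM in those without it. SLITRK6 had 85.6 and 85.1 CPM with CORIN and 48.5 and 55.9 CPM without it, and FERD3L 67.5 and 57.7 CPM against 35.1 and 38.2 CPM. GFP had 4800.0 and 3960.0 CPM with CORIN and 3870.0 and 2770.0 CPM without it. These 4 genes and SYT1 were higher with CORIN in both libraries, while MKI67, ELAVL3, PAX6 and NKX2-2 were lower with CORIN in both. PAX6 and NKX2-2 rested on few counts, with 6 and 5 UMI of PAX6 and 1 and 6 UMI of NKX2-2 in members with CORIN. SPON1 and TWIST1 differed in direction between the libraries. The split used a rule gene in the same cells, so no test was made.

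Some members carried neuronal transcripts. At least 3 UMI over ELAVL3, ELAVL4, STMN2 and ONECUT2 were found in 6.84% and 12.6% of members, against 30.2% and 30.3% of other SOX2-positive cells and 8.93% and 15.6% of collagen-rich cells. Over the 10 neuron markers, members summed to 913 and 977 CPM, against 1976 and 2014 CPM in all other kept cells. Without the members that had at least 3 UMI of those 4 genes, edgeR called 3843 genes against all other kept cells, of which 3460 were among the 3721 called with them, and the 20 genes named for the largest changes all stayed called in the same direction. SYT1 lay at 655 and 738 CPM in members against 336 and 353 CPM in other SOX2-positive cells, above them in both libraries.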

How the data were processed

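Cells of day 25 bovine chimeric embryos were profiled with the 10x Genomics 3′ kit in 2 libraries, per the labels' protocols. The values the authors deposited are unnormalised UMI counts (17846 genes by 4437 barcodes), in all 11182089 UMI in replicate 1 and 15427708 in replicate 2. Per the submitters' processing notes, bosTau9 was the build, and Seurat 4.3.0, R 4.1.2 and Cell Ranger were used. The sources used here do not give how barcodes were filtered. Single-cell 3′ tags do not measure whole transcripts, so levels were compared between sets and not between genes. Each barcode's prefix number matches a replicate number in the sample titles, and 0 columns belonged to another sample.

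Barcodes with at least 1000 UMI and 500 genes were kept, and counts were summed per set and library. After filterByExpr and TMM scaling, robust quasi-likelihood fits were made in edgeR 4.0.16 under R 4.3.3, with library as a block because both sums of a fit come from the same library, and p-values were adjusted by Benjamini-Hochberg over all genes tested. Rule genes stayed in library sizes and out of the tests, as did the 3 collagens, and SOX2 in the comparison with SOX2-positive cells. DESeq2 1.42.0, limma 3.58.1 (log2 CPM, prior count 2), other filters, scalings, depths and rule thresholds served as alternatives. No doublet caller was run. The fit was tested on simulated data.

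Members, 20 lists and tests were chosen with earlier results of these data known. Beyond list genes and GFP, the text names the 12 largest rises and 8 largest falls against all other kept cells, and 6 and 4 in each other comparison, among genes with an adjusted p under 0.05, the same sign in each library and 50 CPM or more in the higher set. In all, 6 list genes were not analysed here, and a few genes that met the rule for names are not reported here. Shares carry exact Clopper-Pearson 95% intervals, and 0 counts are read against 3 counts.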

Additional observations from a re-analysis of the deposited data

How the results depend on the processing

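With 1 library left out no residual degrees of freedom remain, so counts of called genes could not be fitted; GFP then ranged from 1.15 to 1.87 on the log2 scale, the share of kept cells in the rule from 6.35% to 9.28%, and left-out markers from 54.9% to 63.0% (SHH), 60.0% to 71.7% (NTN1), 27.5% to 28.1% (CORIN) and 44.3% to 54.5% (ADAMTS16). FOSB against all other kept cells ranged from -1.76 to 0.126. Without the replicate block, edgeR called 3738, 3283 and 948 genes against all other kept, other SOX2-positive and roof-plate rule cells, in place of 3721, 2449 and 905. DESeq2 called 1013, 732 and 292. With every cell thinned to 2000 UMI before the rule, 391, 155 and 177 were called, from far fewer UMI. The mean share of members, 7.82%, was then 2.32%, and it was 4.99% at a sum of at least 5 UMI and 11.2% among cells of at least 5000 UMI. Mean left-out shares were 27.1% (SHH), 39.8% (NTN1), 10.5% (CORIN) and 30.4% (ADAMTS16) after thinning. GFP against all other kept cells stayed called in every fit.

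Thinning moved the median log2 fold change of all tested genes against all other kept cells to -0.185, in place of -0.031, and turned the direction of the following genes, of which HBZ and HBE1 had not been called before. Against all other kept cells these were NOG -1.51, COX5A -0.318, PKM -0.314, NDUFS5 -0.257, COL2A1 -0.207, EFNB3 -0.179, UQCRQ -0.133, HES1 -0.132, COX8A -0.13, COX7A2 -0.0863, UQCRB -0.0744, HSPA8 -0.0495 and MCM5 -0.0191. Against other SOX2-positive cells they were NOG -1.43, HBE1 1.35, HBZ 1.12, DCX 0.44, COX5A -0.301, NDUFS5 -0.165, COX8A -0.0969, UQCRB -0.0526, COX7A2 -0.0287 and COX7C -0.0192. The cause was not tested. Of the named genes, FERD3L, EPHX1, TWIST1, LRRC77, SIDT1 and PAG2 were not called after thinning against all other kept cells. Against other SOX2-positive cells FERD3L, EPHX1 and PENK among others were not called, and against roof-plate rule cells 7 of 10. Genes with too few UMI left to test count as not called. Against roof-plate rule cells 0 of the position genes, OTX2 among them, were tested after thinning. Members held 1 to 3 UMI of several genes, where a difference from 0 was not detectable.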
